A study of Mus musculus with 21 samples.

Results

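The meiotic chromosome genes examined here are 10 mouse genes whose products build or act on chromosomes during meiosis. They are Hormad1, Sycp1, Sycp2, Sycp3, Smc1b, Stag3, Rec8, Meioc, Rec114 and Dmc1. All probe sets that the platform annotation gives to these symbols were taken, which gave 12 of the 45037 probe sets tested and 10 of the 18193 genes measured. Rec114 and Dmc1 had 2 probe sets each and the other 8 genes had 1. Each gene was read on the brighter of its probe sets by the mean of all arrays, and the second probe sets are given beside it.

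The samples were cultures of CGR8, a mouse embryonic stem cell line, on 21 Affymetrix arrays in 7 groups of 3 biological replicates. Embryoid bodies are the aggregates in which stem cells begin to differentiate, and they were grown here from hanging drops of 500 cells in 25 µL, then kept on a shaker from day 2 onward. They were collected at days 2, 3 and 5, with ascorbic acid at 100 µM in the medium (labelled 20% IMDM) or in the same medium without it, called controls below. The undifferentiated cells of day 0 were in a medium labelled 10% GMEM, so day, culture form and medium cannot be told apart in comparisons with day 0. All groups come from this 1 line, and the submitters analysed only cultures in which the compound was later seen to increase beating aggregates. The labels do not say how the biological replicates were separated, so p-values measure the spread between these samples, part of which may be technical.

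Meiosis is the pair of divisions by which germ cells make haploid gametes. Homologous chromosomes are folded along a protein axis, broken by programmed double-strand breaks, aligned by recombination and held together by the synaptonemal complex. In most body cells these genes are kept silent, largely by promoter DNA methylation and by repressor complexes that contain E2F6, MGA, MAX and PCGF6, and mouse embryonic stem cells are known to transcribe some of them without entering meiosis. Ascorbic acid is a cofactor that keeps iron-dependent dioxygenases active, among them the TET enzymes that oxidise methylated DNA.

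The promoters of the 5 members on which the results turn are printed to show 2 sequences that the known repressor complexes bind: the E-box CACGTG, a MAX-type site, and the E2F-type site TCCCGC, which reads GCGGGA on the other strand. Both strands were searched, no match printed overlaps another, and each match is in capitals. The windows run 5′ to 3′ on the gene's strand, 250 bases before and 50 after the start that RefSeq gives on GRCm38.p6. They lie at chr3:95559427-95559726 (plus strand) for Hormad1, chr10:88459337-88459636 (plus) for Sycp3, chr5:138280259-138280558 (plus) for Stag3, chr11:102665335-102665634 (plus) for Meioc and chr9:58741510-58741809 (minus) for Rec114. For Stag3, Meioc and Rec114 this start lies inside the span annotated for the gene.
Hormad1: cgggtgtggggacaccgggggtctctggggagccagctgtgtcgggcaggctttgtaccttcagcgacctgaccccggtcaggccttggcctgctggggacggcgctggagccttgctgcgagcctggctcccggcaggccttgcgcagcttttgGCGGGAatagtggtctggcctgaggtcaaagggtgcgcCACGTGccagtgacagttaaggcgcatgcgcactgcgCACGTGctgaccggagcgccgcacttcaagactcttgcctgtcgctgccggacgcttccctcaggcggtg
Sycp3: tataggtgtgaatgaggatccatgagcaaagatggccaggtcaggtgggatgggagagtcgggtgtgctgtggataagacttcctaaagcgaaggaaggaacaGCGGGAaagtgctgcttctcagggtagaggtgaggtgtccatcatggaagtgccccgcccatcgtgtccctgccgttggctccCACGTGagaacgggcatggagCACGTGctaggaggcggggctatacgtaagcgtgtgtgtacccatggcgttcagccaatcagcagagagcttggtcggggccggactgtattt
Stag3: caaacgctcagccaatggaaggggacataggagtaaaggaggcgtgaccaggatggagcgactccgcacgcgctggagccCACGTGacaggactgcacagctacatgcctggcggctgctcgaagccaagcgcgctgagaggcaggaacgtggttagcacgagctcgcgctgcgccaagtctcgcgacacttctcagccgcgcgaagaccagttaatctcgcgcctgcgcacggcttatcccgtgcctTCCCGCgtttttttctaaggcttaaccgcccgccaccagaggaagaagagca
Meioc: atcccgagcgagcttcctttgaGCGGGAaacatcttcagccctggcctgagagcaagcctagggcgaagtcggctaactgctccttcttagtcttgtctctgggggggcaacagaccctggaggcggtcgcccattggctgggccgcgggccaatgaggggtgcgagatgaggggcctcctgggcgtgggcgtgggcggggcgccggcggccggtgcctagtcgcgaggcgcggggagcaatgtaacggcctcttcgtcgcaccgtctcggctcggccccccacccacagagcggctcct
Rec114: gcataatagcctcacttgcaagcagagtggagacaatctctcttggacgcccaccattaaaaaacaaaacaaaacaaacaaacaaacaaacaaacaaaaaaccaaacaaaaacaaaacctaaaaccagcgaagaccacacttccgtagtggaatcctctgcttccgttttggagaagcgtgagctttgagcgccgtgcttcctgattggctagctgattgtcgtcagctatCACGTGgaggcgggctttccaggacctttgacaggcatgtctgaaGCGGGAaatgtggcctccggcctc
All 10 members had a window in this table. The E-box was found in 5 of the 10 windows, those of Hormad1 and Sycp3 (2 each), Sycp1, Stag3 and Rec114, against 7.24% of 27025 promoters of the same length. At least 1 E2F-type site lay in 9 of 10 windows, all but that of Sycp2, against 20.0% of all promoters. Both motifs stood in 5 of 10 windows, against 2.05% of all. The members' windows were rich in CpG, with 10 to 30 each and a median of 19.5, against a median of 7 over all promoters. Among the 9088 promoters within that CpG range, 10.9% held the E-box, 35% the E2F-type site and 3.62% both. These matches describe the letters in the windows, and binding was not measured here.

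Values are log2 signals. A level was called within the background range where it did not exceed 6.64, the 95th percentile of 44 olfactory receptor probe sets, whose genes these cells should scarcely express. No fold is given against such a level. By that measure Sycp1 and Sycp2 were within the background range on all 21 arrays, Hormad1 exceeded it on 1 array, Dmc1 on 2 and Meioc on 5. Stag3 exceeded it on 7 arrays, Smc1b on 11, Rec114 on 12, Sycp3 on 17 and Rec8 on 19. Replicate arrays of a group correlated at r = 0.972 to 0.995, the lowest within day 0, and the gap between the 3′ and 5′ control probe sets of Actb, which widens as RNA degrades, ranged from 0.71 to 1.40 over all arrays. Replicate 1 of day 0 stood apart for these genes, being the lowest of the 3 arrays for 6 members and the highest for the other 4. Replicate 3 of day 3 was the highest for 8 of 10 members with ascorbic acid and for 10 of 10 without it. Replicate 3 of day 2 was the highest for 9 of 10 with ascorbic acid and for 5 of 10 without it. In the day 2 controls, replicate 2 was the lowest for 6. Replicate 2 of day 5 was the highest for 7 members with ascorbic acid and for 6 without it. In these bulk samples, fewer cells that express a gene and less RNA per cell cannot be told apart.

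**Figure D1:**
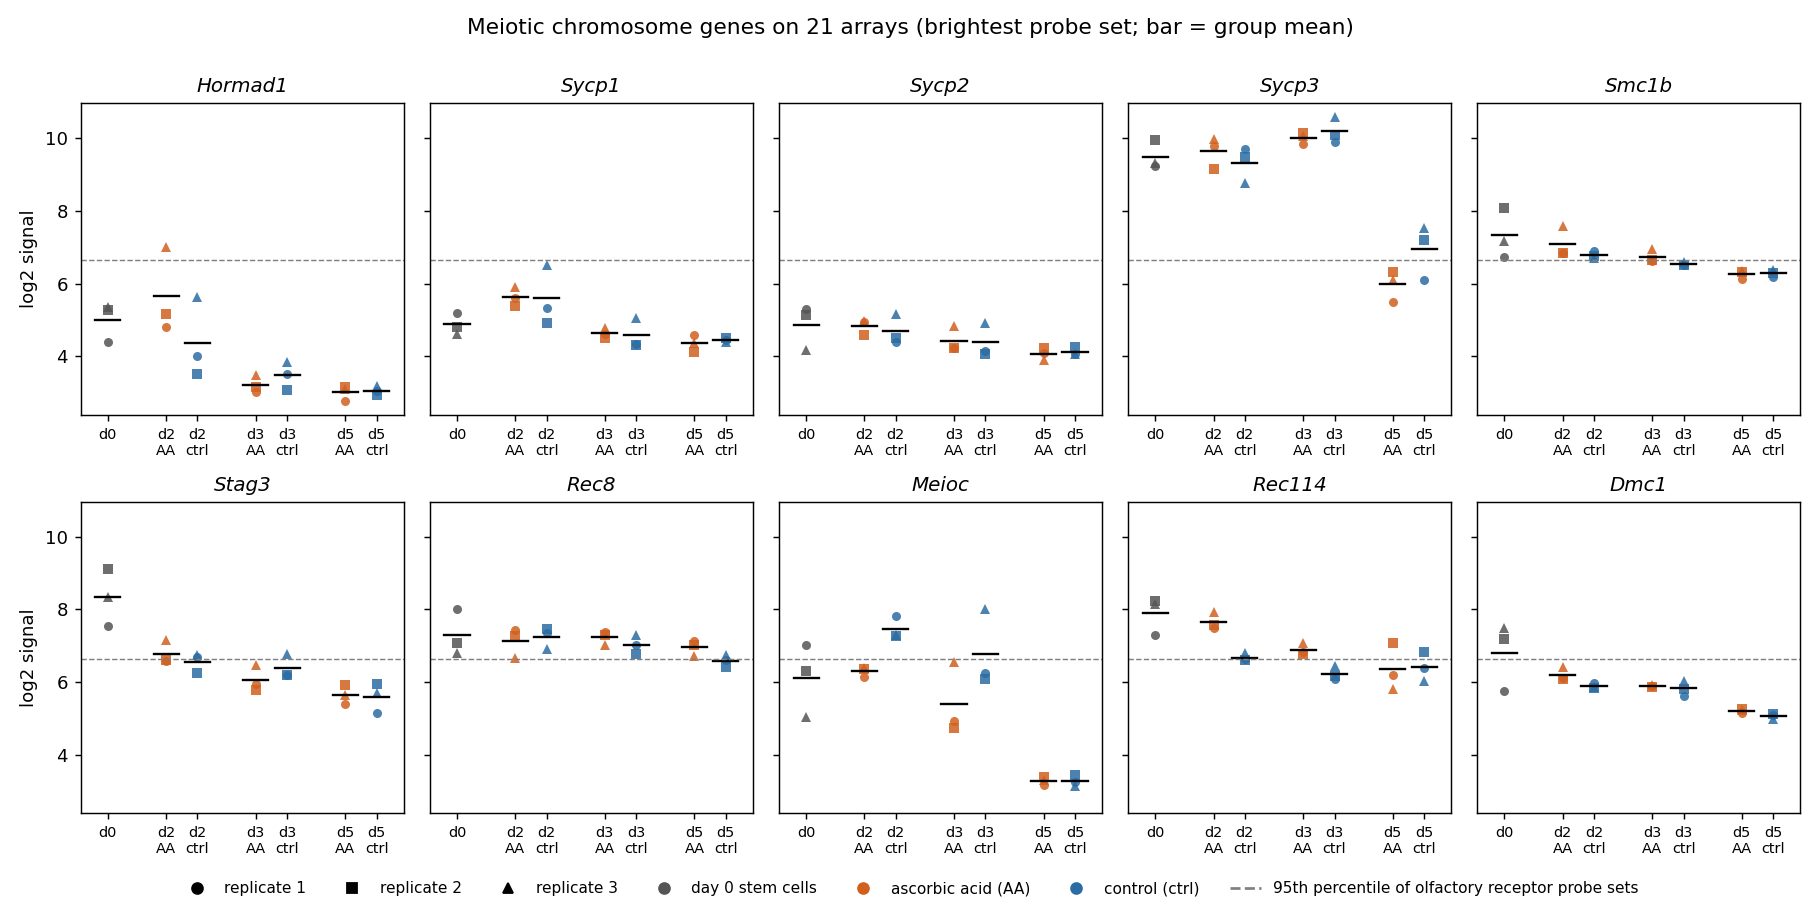
Log2 signal of each gene on its brightest probe set (y axis) in the 7 groups (x axis), with 1 marker for each array, a bar at the group mean and a dashed line at the background level of 6.64. Sycp3 stayed between 8.77 and 10.58 through day 3 and was lower on all 6 arrays of day 5, while Stag3, Rec114 and Dmc1 were highest on average at day 0.

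Without ascorbic acid, most members had a lower signal by day 5 than in the undifferentiated cells, and the steps in which they were called differed. At day 5 against day 0, 9 of 10 members were lower and 0 were higher at an adjusted p under 0.05 (limma), where 28.4% of all genes were called, 13.2% as lower and 15.3% as higher. The remaining member, Sycp1, differed by -0.43 ± 0.28 (log2 difference ± SE, adjusted p = 0.316). The day 5 controls and the day 0 cells did not overlap for 9 members, all but Sycp2, as for 34.3% of all genes. The median difference of the 10 members was -1.62, against -0.04 over all genes. Without day 0 replicate 1, 7 members were called lower; Rec8 and Sycp2 were no longer called, at -0.35 (adjusted p = 0.291) and -0.53 (adjusted p = 0.199).

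By step, day 2 against day 0 called 3 members lower and 0 higher, where 10.6% of all genes were called, 6.37% as lower and 4.25% as higher. They were Stag3, which forms part of the meiotic cohesin ring, and the recombination genes Rec114 and Dmc1. Without day 0 replicate 1 this step called 4 members lower and 1 higher, and without day 0 replicate 2 it called 1. Day 3 against day 2 called 0 of 10 members, where 4.62% of all genes were called, 4.05% as higher and 0.572% as lower; limma's unadjusted p was under 0.05 for 2 of them, Sycp1 and Sycp3. Between day 3 and day 5, Sycp3 and Meioc were called lower and no member higher, where 17.0% of all genes were called, 8.56% as lower and 8.40% as higher. The arrays of these days did not overlap for 6 members, as for 34.4% of all genes. Without day 0 replicate 1, which enters this step only through the shared spread, 4 members were called lower.

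**Figure D2:**
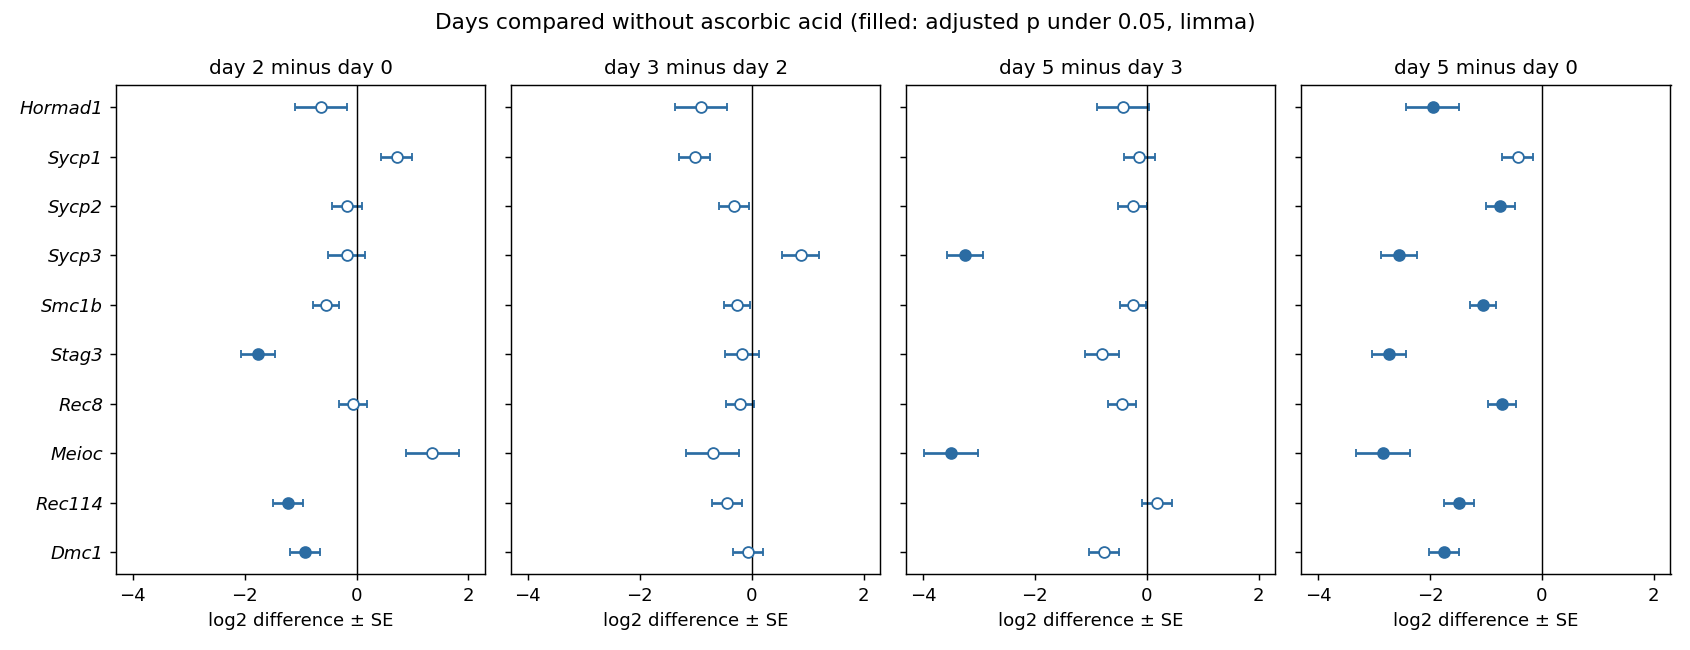
Log2 difference of each gene (x axis, with SE from limma) for 3 successive steps and for day 5 minus day 0, all without ascorbic acid, 3 arrays per group. Filled points mark an adjusted p under 0.05: Stag3, Rec114 and Dmc1 in the first step, none in the next, and Sycp3 and Meioc in the last step.

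Among the genes of the chromosome axis and synaptonemal complex, Sycp3 had the clearest signal. Its product is a filament protein of the axis, on which the lateral elements of the complex are built. Day 0 cells had 9.23, 9.95 and 9.31, followed at day 2 by 9.78, 9.16 and 9.99 with ascorbic acid and 9.70, 9.49 and 8.77 in controls. At day 3 it read 9.85, 10.14 and 10.07 with ascorbic acid and 9.91, 10.09 and 10.58 in controls, and at day 5 it read 5.49, 6.33 and 6.11 with ascorbic acid and 6.10, 7.19 and 7.54 in controls. All 6 arrays of day 5 lay below all 15 earlier arrays. Day 5 minus day 3 was -3.25 ± 0.33 in controls, or 9.51-fold lower (adjusted p = 5.61e-07), and day 5 minus day 0 was -2.55 ± 0.33, or 5.87-fold lower (adjusted p = 5.42e-06). Day 3 against day 2 gave 0.87 ± 0.33 (adjusted p = 0.161), with no overlap between the control groups, a feature of 27.3% of all genes in that step.

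The other members of this structure were dim. Hormad1 encodes an axis protein with a HORMA domain that is needed for break formation and for monitoring synapsis. It had 4.38, 5.28 and 5.34 at day 0, followed at day 2 by 4.81, 5.15 and 7.0 with ascorbic acid and 3.99, 3.50 and 5.62 in controls. From day 3 on, all 12 arrays read 2.77 to 3.85. Day 5 controls minus day 0 cells gave -1.95 ± 0.47 (adjusted p = 0.00356), with all values in the background range. Sycp1, the transverse filament that joins the lateral elements, read 4.62 to 5.20 at day 0, 4.92 to 6.52 at day 2 and 4.32 to 5.06 at day 3 in controls. The day 3 minus day 2 difference of -1.02 ± 0.28 just missed the threshold (adjusted p = 0.0506) and the groups overlapped. Sycp2, a lateral element protein that binds SYCP3, differed by -0.74 ± 0.26 at day 5 against day 0 in controls (adjusted p = 0.0464), the groups overlapping and all 21 values lying between 3.88 and 5.29. This call was lost in 18 alternatives (adjusted p up to 0.199) and held in 8; the 18 included the compared groups alone (0.089), no intensity trend (0.0537) and leaving out any 1 day 5 control array.

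The meiotic cohesin subunits were all called lower at day 5 than at day 0 in controls. Cohesin is the ring that holds sister chromatids together, and STAG3, SMC1B and REC8 take the places that STAG1 or STAG2, SMC1A and RAD21 hold in dividing body cells. Stag3 was at 7.53, 9.11 and 8.35 in day 0 cells, and at day 2 had 6.57, 6.60 and 7.17 with ascorbic acid and 6.69, 6.25 and 6.75 in controls. By day 5 it read 5.39, 5.92 and 5.63 with ascorbic acid and 5.15, 5.94 and 5.70 in controls. Every array of day 2 or later lay below every day 0 array. In controls the difference from day 0 was -1.77 ± 0.31 at day 2 (adjusted p = 0.00118) and -2.73 ± 0.31 at day 5 (adjusted p = 1.08e-06). The control means of Stag3 at days 2 (6.56), 3 (6.39) and 5 (5.60) were within the background range. Fitted on the arrays of the compared groups alone, the day 2 difference had an adjusted p of 0.0643.

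Smc1b encodes the meiotic SMC1 subunit. Day 0 cells had 6.74, 8.07 and 7.18, followed in controls by 6.89, 6.77 and 6.69 (day 2), by 6.50, 6.50 and 6.58 (day 3) and by 6.19, 6.29 and 6.37 (day 5). The order of the days held in the means, but limma called no step between neighbouring days; day 5 minus day 0 was -1.05 ± 0.24 (adjusted p = 0.00217). Rec8, the meiotic kleisin that closes the ring, had 8.02, 7.08 and 6.80 at day 0 and stayed between 6.77 and 7.45 in day 2 and day 3 controls. At day 5 it read 7.14, 7.01 and 6.71 with ascorbic acid and 6.61, 6.41 and 6.74 in controls. Day 5 controls minus day 0 cells gave -0.71 ± 0.25 (adjusted p = 0.0451), a call that was lost in 12 alternatives and held in 15. Among the 12 were the fit of the compared groups alone (adjusted p = 0.151) and the fits without day 0 replicate 1 or any 1 of the day 5 control arrays (adjusted p from 0.0572 to 0.291). The day 5 control means of Smc1b (6.28) and Rec8 (6.59) were within the background range.

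The mitotic counterparts were read in the same fit. Stag2 was higher at day 5 than at day 0 by 1.16 ± 0.11 (adjusted p = 2e-07), with 10.18, 10.64 and 10.50 in day 5 controls and 9.33, 9.27 and 9.23 in day 0 cells. Day 5 minus day 0 was 0.08 ± 0.13 for Smc1a, -0.22 ± 0.13 for Smc3, 0.00 ± 0.16 for Rad21 and 0.29 ± 0.12 for Stag1, none of them called (adjusted p from 0.0993 to 0.991). Of 14 genes of mitotic cohesin and its loading, 2 were higher and 3 lower at day 5 against day 0, where 15.3% of all genes were called higher and 13.2% lower. The lower ones included Esco2 (-2.15 ± 0.28), an acetyltransferase active in S phase, and Cdca5 (-0.78 ± 0.12), which protects cohesion. The difference between the meiotic and the mitotic subunits was not itself tested.

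**Figure D3:**
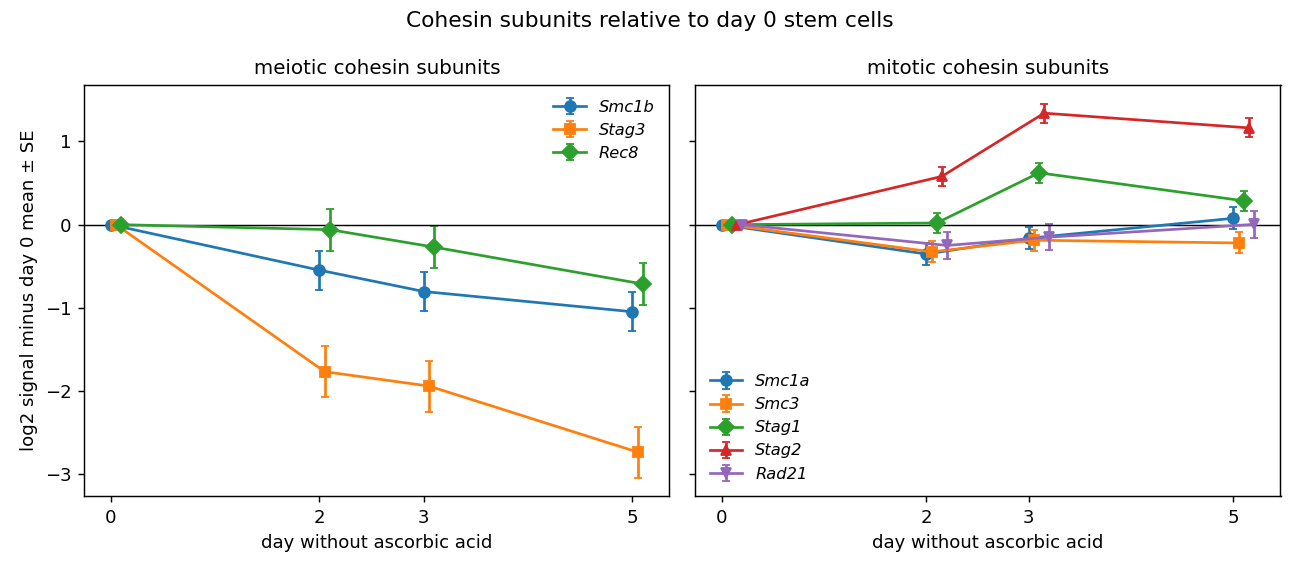
Log2 signal minus the day 0 mean (y axis, with SE from limma) at days 0, 2, 3 and 5 without ascorbic acid (x axis, points offset to be seen), 3 arrays a day. The meiotic subunits (left) end at -1.05 (Smc1b), -2.73 (Stag3) and -0.71 (Rec8), with day 5 means within the background range. Stag2 among the mitotic ones (right) ends at 1.16.

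Both recombination genes were highest before differentiation. Rec114 encodes a partner of the machinery in which SPO11 makes meiotic breaks. It had 7.30, 8.24 and 8.14 at day 0, followed at day 2 by 7.50, 7.56 and 7.92 with ascorbic acid and 6.62, 6.60 and 6.79 in controls. At day 3 it read 6.83, 6.77 and 7.07 with ascorbic acid and 6.07, 6.17 and 6.45 in controls, and at day 5 it read 6.19, 7.07 and 5.81 with ascorbic acid and 6.38, 6.82 and 6.03 in controls. The treated arrays of day 2 overlapped the range of day 0, whereas the controls of that day all lay below it. In controls the difference from day 0 was -1.22 ± 0.27 at day 2 (2.33-fold lower, adjusted p = 0.00685) and -1.48 ± 0.27 at day 5 (adjusted p = 0.000288). The day 2 control mean of 6.67 stood just above the background level, which 1 of its 3 arrays exceeded. The day 5 control mean of 6.41 was within the background range. The day 2 call was lost without day 0 replicate 2 (adjusted p = 0.0512), in the fit of the compared groups alone (adjusted p = 0.0686) and on the second probe set (-0.48 ± 0.22, adjusted p = 0.2), which did not pass at day 5 either (-0.38 ± 0.22, adjusted p = 0.235).

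Dmc1, the meiosis-specific strand exchange protein, had 5.76, 7.18 and 7.48 at day 0. Its day 2 values were 6.12, 6.09 and 6.40 with ascorbic acid and 5.98, 5.83 and 5.85 in controls. By day 5 it read 5.15, 5.25 and 5.23 with ascorbic acid and 5.09, 5.11 and 4.97 in controls. All day 5 values lay below all day 0 values. This probe set exceeded the background range on 2 of the 3 day 0 arrays and on no array of days 2, 3 or 5. Day 5 controls minus day 0 cells gave -1.75 ± 0.26 (adjusted p = 3.77e-05), and the second probe set gave -2.20 ± 0.36 (adjusted p = 9.85e-05). Day 2 controls minus day 0 cells gave -0.92 ± 0.26 (adjusted p = 0.034) with overlapping groups; the second probe set gave -1.14 ± 0.36 (adjusted p = 0.0543), and the call was lost without day 0 replicate 2 (adjusted p = 0.186) or replicate 3 (adjusted p = 0.195), without any 1 day 2 control array (adjusted p from 0.0723 to 0.0921) and in the fit of the compared groups alone (adjusted p = 0.304).

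Meioc had its highest mean at day 2 in controls. Its product works with the RNA helicase YTHDC2 to carry germ cells from the mitotic cycle into meiotic prophase. Day 0 cells had 7.01, 6.29 and 5.04, followed at day 2 by 6.14, 6.35 and 6.38 with ascorbic acid and 7.83, 7.28 and 7.30 in controls. At day 3 the values were 4.92, 4.73 and 6.56 with ascorbic acid and 6.25, 6.07 and 8.00 in controls, and by day 5 they were 3.15, 3.39 and 3.29 with ascorbic acid and 3.25, 3.45 and 3.13 in controls. All day 2 controls lay above all day 0 cells, as 19.3% of all genes did in either direction in that step. The day 2 minus day 0 difference was 1.36 ± 0.48 and missed the threshold (adjusted p = 0.087). Between day 3 and day 5 Meioc differed by -3.50 ± 0.48 in controls (adjusted p = 2.84e-05), ending within the background range.

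The effect of ascorbic acid was asked at each day. In the fit without pairs, limma called 0 of 10 members at day 2, day 3 or day 5, where 0.00550%, 0% and 0.0605% of all genes were called, and unadjusted p was under 0.05 for 3, 2 and 1 members. It also called 0 of 10 for the average over the 3 days, where 0.0220% of all genes were called, and 2 members had an unadjusted p under 0.05. Arrays with and without ascorbic acid that shared a day and a replicate number deviated from their group means together, least at day 2. The fit with these 9 pairs as blocks is therefore given beside the fit without pairs. It shares its estimate of a gene's spread over the 3 days. The SE at a day thus draws also on days spent within the background range. Hormad1 was so placed at days 3 and 5, and Meioc at day 5. At day 2 that paired fit called 2 members higher and 1 lower, where 2.01% of all genes were called, 1.59% as higher and 0.418% as lower. At day 3 it called 1 higher and 1 lower, where 0.143% of all genes were called, 0.0660% as higher and 0.0770% as lower. At day 5 it called 1 lower, where 0.808% of all genes were called, 0.137% as lower and 0.671% as higher. For the average over the days it called 1 higher and 1 lower, where 1.55% of all genes were called, 1.16% as higher and 0.390% as lower.

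The 3′ to 5′ gaps of the control transcripts moved with treatment at day 2, the day with the most calls. For Actb the gap was 0.91, 1.08 and 0.91 with ascorbic acid and 1.22, 1.40 and 0.94 in controls. For Gapdh it was 0.15, 0.21 and 0.11 with ascorbic acid and 0.36, 0.63 and 0.17 in controls. Both were smaller in the treated array of every pair, and their part in the calls of Hormad1, Meioc and Rec114 at that day was not tested. At day 3 the gap of Actb was 1.28, 1.00 and 1.04 with ascorbic acid and 1.03, 0.96 and 1.05 in controls.

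**Figure D4:**
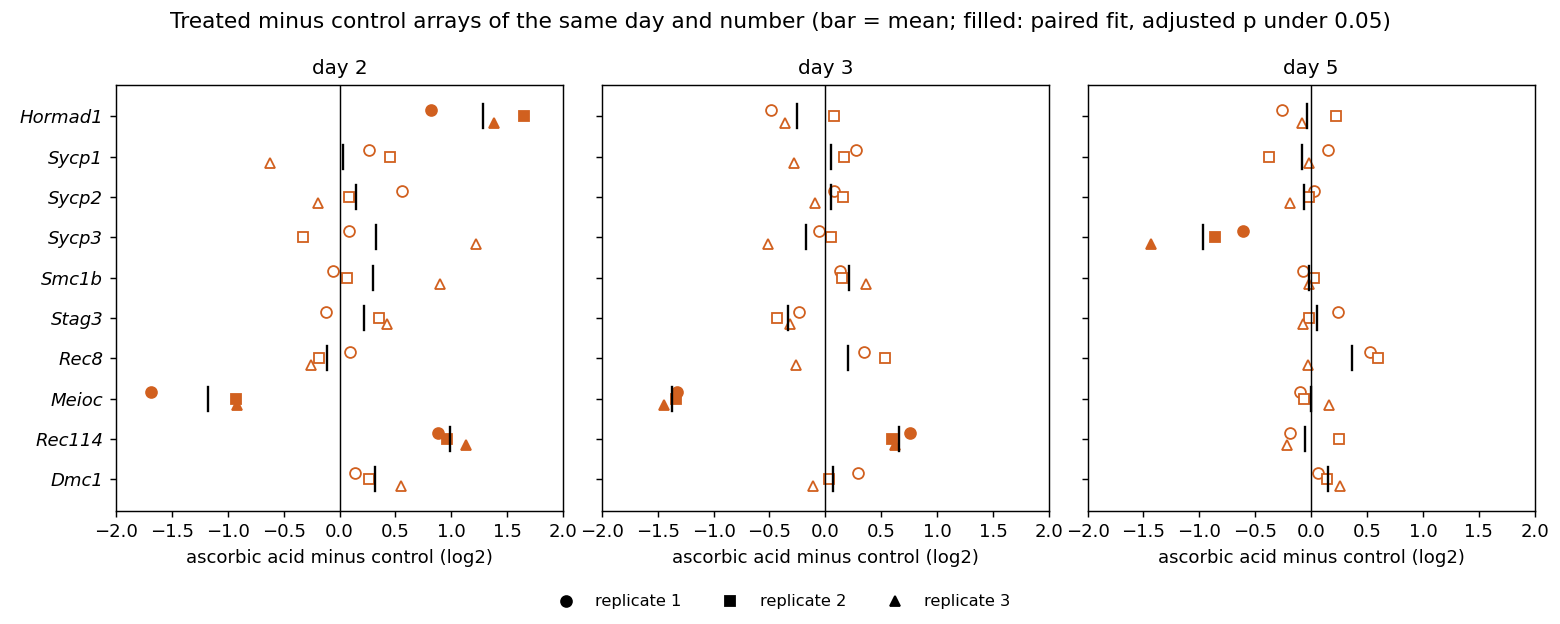
Ascorbic acid minus control (x axis, log2) for each gene at days 2, 3 and 5, with 1 marker for each pair of arrays of the same day and replicate number and a bar at their mean. Filled markers are genes called in the paired fit: Hormad1, Meioc and Rec114 at day 2, Meioc and Rec114 at day 3, and Sycp3 at day 5.

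Meioc was lower with ascorbic acid at days 2 and 3. Treated minus control was -1.69, -0.93 and -0.92 in the pairs of day 2 and -1.33, -1.34 and -1.44 in those of day 3, from the values given above. The treated and control arrays of day 2 did not overlap, as for 13.5% of all genes at that day, while those of day 3 overlapped because replicate 3 was higher than the other two in both groups. The paired fit gave -1.18 ± 0.14 at day 2 (adjusted p = 0.00039, against 0.666 unpaired) and -1.37 ± 0.14 at day 3 (adjusted p = 0.000229, against 1 unpaired). At day 5, when both groups were within the background range, the pairs differed by -0.10, -0.06 and 0.16. With ascorbic acid 0 of 3 arrays exceeded that range at day 2 and 0 of 3 at day 3. In controls 3 of 3 did at day 2 and 1 of 3 at day 3. Over the 3 days the average was -0.85 ± 0.08, lower in 8 of 9 pairs (adjusted p = 4e-05, against 0.892 unpaired).

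Rec114 was higher with ascorbic acid at the same days. The pairs differed by 0.88, 0.96 and 1.13 at day 2 and by 0.76, 0.60 and 0.62 at day 3, and the treated and control arrays did not overlap at either day. At day 3, 6.85% of all genes showed such a gap. At day 2 the difference was 0.99 ± 0.12 in the paired fit, or 1.99-fold (adjusted p = 0.000559, against 0.583 unpaired), and at day 3 it was 0.66 ± 0.12 (adjusted p = 0.0463, against 1 unpaired). The day 3 call was lost in 6 of the 9 fits that leave out 1 pair. The pairs of day 5 differed by -0.19, 0.25 and -0.22. Both group means of that day were within the background range, as were all controls of day 3. On the second probe set of Rec114, whose 21 values lay in the background range and whose suffix marks probes that can match other transcripts, the difference was 0.46 ± 0.10 at day 2 (adjusted p = 0.0284) and 0.50 ± 0.10 at day 3 (adjusted p = 0.085).

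Hormad1 was higher with ascorbic acid at day 2 alone of the days tested. Its pairs differed by 0.82, 1.65 and 1.38, although the groups overlapped, since replicate 3 was the highest array in both. The paired difference was 1.28 ± 0.14 (adjusted p = 0.000234, against 0.648 unpaired), between a treated mean of 5.65 and a control mean of 4.37, both in the background range. At days 3 and 5 the differences were -0.26 ± 0.14 and -0.04 ± 0.14 (adjusted p = 0.996 and 0.995).

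Sycp3 was lower with ascorbic acid at day 5. The pairs differed by -0.61, -0.86 and -1.43, and the paired fit gave -0.97 ± 0.21 (adjusted p = 0.0448, against 1 unpaired), with a treated mean of 5.98 and a control mean of 6.94. This call was lost in 7 of the 9 fits that leave out 1 pair. The brighter probe set of Dmc1 was higher in 8 of 9 pairs, by 0.18 ± 0.07 on average (adjusted p = 0.333), with all arrays of these pairs in the background range. Its treated and control arrays did not overlap at day 2 or at day 5, when 6.41% of all genes showed such a gap. Its other probe set gave 0.71 ± 0.17 at day 2 in the paired fit (adjusted p = 0.0477), between means of 6.47 and 5.76, also in that range. For Sycp1, Sycp2, Smc1b, Stag3 and Rec8 the paired differences at the 3 days lay between -0.33 and 0.37 and none was called.

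Whether the effect of ascorbic acid differed between days 2, 3 and 5 was tested by an F test. The paired fit called 3 members, Hormad1 (adjusted p = 0.00237), Meioc (adjusted p = 0.0052) and Rec114 (adjusted p = 0.0197), where 0.418% of all genes were called. In the fit without pairs 0 of 10 were called, where 0.00550% of all genes were called; 2 had an unadjusted p under 0.05.

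Other meiotic genes were counted in the same way. Of 28 measured genes among 44 listed for meiotic chromosomes and recombination, 13 were lower and 1 higher at day 5 against day 0, with a median of -0.52, where 13.2% of all genes were called lower and 15.3% higher. The lower ones included Ccnb1ip1 (-3.43 ± 0.23), a crossover factor also known as HEI10, and Hsf2bp (-3.39 ± 0.42), a BRCA2 partner in meiotic recombination. Mei4, which works with REC114 in break formation, differed by -2.98 ± 0.47, and Syce1, a central element protein, by -2.44 ± 0.32. Both means of Mei4 were within the background range, at 6.23 in day 0 cells and 3.26 in day 5 controls. The day 5 control means of Ccnb1ip1, Hsf2bp and Syce1 were within it too. Ccnb1ip1 read 5.35, 5.67 and 5.77 in day 5 controls and 8.93, 9.30 and 9.56 in day 3 controls. Spo11, which makes the breaks, was within the background range on all 21 arrays. In the step from day 3 to day 5, 9 of the 28 were lower and 0 higher, where 8.56% of all genes were called lower. Among them was Syce2 (-1.40 ± 0.14), another central element gene.

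With ascorbic acid, the paired fit called 2 of these 28 genes at day 2, both higher, where 1.59% of all genes were called higher. They were Mnd1 (0.73 ± 0.15), a helper of DMC1, and Tex11 (0.68 ± 0.10), an X-linked synapsis gene in the background range. For the average over the days it called Tex11 higher (0.43 ± 0.06) and Syce2 lower (-0.25 ± 0.05, adjusted p = 0.0215). Among 6 measured genes of meiotic entry, Stra8, the retinoic acid responsive trigger of meiosis, was higher at day 2 by 0.51 ± 0.11 (adjusted p = 0.0264). Its treated mean was 6.94, and its control mean of 6.42 was within the background range. Rbm46, which encodes an RNA-binding partner of MEIOC and YTHDC2, was lower, by -0.79 ± 0.13 at day 2 (adjusted p = 0.00527) and -0.75 ± 0.13 at day 3 (adjusted p = 0.0379). The values of Rbm46 were all in the background range, with 4.37 to 4.60 in treated arrays of day 2 and 4.87 to 5.75 in controls. None of these genes was called in the fit without pairs.

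Some genes of germline repression and of demethylation were called in the same comparisons. At day 2 against day 0 the DNA methyltransferase genes Dnmt3a (2.15 ± 0.24) and Dnmt3b (1.86 ± 0.29) were higher, and the dioxygenase genes Tet2 (-2.73 ± 0.30) and Tet1 (-1.49 ± 0.23) were lower. Of 19 repressor genes, 2 were higher and 3 lower in that step, and of 8 demethylation genes 4 were lower, where 4.25% of all genes were called higher and 6.37% lower. At day 5 against day 0, 6 repressor genes were lower, among them L3mbtl2 (-1.13 ± 0.12), Mga (-1.07 ± 0.18) and Pcgf6 (-0.63 ± 0.15), and 2 were higher, against 13.2% and 15.3% of all genes. With ascorbic acid at day 2 the paired fit called Dnmt3a (0.61 ± 0.10), Uhrf1 (0.41 ± 0.07) and Pcgf6 (0.35 ± 0.08) higher, and Tet1 (0.54 ± 0.12) too. The part of any of these genes in the members' changes was not tested.

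Markers of some cell types were called in the same comparisons as the members. All 6 pluripotency genes listed were above the background level at day 0 and were lower at day 5, when 2 of 6 were above it. Of all genes, 13.2% were called lower in that comparison. Their summed linear signal ranged from 618 to 951 in day 5 controls and from 12296.5 to 21100.4 in day 0 cells. At day 2 it was 8465 to 9738 with ascorbic acid and 8522 to 9311 in controls. Of 8 primordial germ cell genes, 6 were lower at day 5 against day 0, against the same 13.2% of all genes. Their summed linear signal was 983 to 1355 in day 5 controls and 1728 to 2888 in day 0 cells. Between day 3 and day 5, when Sycp3 and Meioc were lower, 3 of the 8 were lower and 2 were higher, Kit (1.64 ± 0.31) and Prdm1 (1.45 ± 0.33). In that step 8.56% of all genes were called lower and 8.40% higher. Ddx4, a germ cell RNA helicase, had 3.46, 3.28 and 3.60 in day 5 controls and 7.68, 8.14 and 7.02 in day 0 cells. It was lower with ascorbic acid at day 2 in the paired fit (-0.73 ± 0.15, adjusted p = 0.0218). Markers of male germ cells were above the background level for 1 of 7 genes in every group, Prm1, and those of oocytes for 1 or 2 of 7. Markers of cells resembling the early cleavage embryo were above it for 0 of 4 measured genes. The 7 listed included Zscan4c, Zscan4d and Zscan4f, which were not found. Of the 4, 3 were called lower at day 5 against day 0, where 13.2% of all genes were called lower. Fibroblast markers were called higher for 4 of 7 genes at day 5 against day 0, where 15.3% of all genes were called higher. With ascorbic acid at day 5 the paired fit called 1 of the 7 higher, where 0.671% of all genes were called higher. It was the collagen gene Col1a2 (1.15 ± 0.14, adjusted p = 0.000529). The median difference of the 7 was -0.17. Of them, 3 were above the background level with ascorbic acid and 5 in controls. The summed linear signal of the 7 was 1111 to 1746 with ascorbic acid and 702 to 1882 in controls at that day. The part of these shifts in the members' changes was not tested.

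Across the 21 arrays, which share their day and treatment groups, the 45 pairs of members all correlated positively, with Pearson's r from 0.04 (Hormad1 and Rec8) to 0.89 (Stag3 and Dmc1) and a median of 0.53. For the 6 members whose group means spanned over 1.5, the most similar profiles among 1594 genes of like span were read off by r over the 21 arrays, as a description. Sycp3 was closest to Syce2 (r = 0.947), Pou5f1 (0.944) and Ptpn3 (0.943). Meioc was closest to Ddx4 (0.938), Syce2 (0.928) and Skil (0.912). For Stag3 the closest genes were Sema4b (0.967), Apoc1 (0.9485) and Acp6 (0.936). For Dmc1 they were Nfatc2ip (0.957), Patl2 (0.954) and Ccdc160 (0.953). Hormad1 was closest to Hmox1 (0.938), Gm364 (0.934) and Tex19.1 (0.934). Rec114 was closest to Rnf125 (0.907), C730049O14Rik (0.898) and Ampd3 (0.897).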

How the data were processed

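RNA from 21 cultures was hybridised to 1 array each. The deposited log2 values were made with RMA, per the submitters' processing notes; its version and any genome build are not given in the sources used here. RMA corrects background, quantile-normalises and summarises the probes, so differences are relative to the bulk of probe sets on an array. Arrays have no read depth, and their number limits the precision. All 21 value columns were used.

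From there, R 4.3.3 and limma 3.58.1 (lmFit, eBayes with intensity trend, two-sided) fitted 7 group means on 45037 probe sets without controls, with Benjamini-Hochberg adjustment over all of them and calls under 0.05. Shares of all genes called are over 18193 genes on their brightest probe set. The labels do not state whether replicate numbers pair the cultures. Treated and control arrays of a day and number deviated together with r = 0.16 to 0.606 in 9 of 9 pairs, above the threshold of 0.1. The pairs of day 2, the day with the most calls, had the lowest r, at 0.16, 0.176 and 0.23. A fit with 9 pairs as blocks (18 arrays) therefore stands beside the main one. Up to 4 called genes with the largest difference were named per list and comparison, and 3 nearest profiles per member; Spo11, Prm1, the remaining cohesin core genes and values of the same genes at other days were named after their values were seen. Scripts were tested on simulated data. The members and lists were chosen with earlier results of these data known.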

Additional observations from a re-analysis of the deposited data

Results flagged for a closer look

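In 3 members the effect of ascorbic acid differed between days 2, 3 and 5 by the F test of the paired limma fit. For Hormad1 (adjusted p = 0.00237) treated minus control averaged 1.28 at day 2, -0.26 at day 3 and -0.04 at day 5, all but 1 of its values lying in the background range. For Meioc (adjusted p = 0.0052) it averaged -1.18, -1.37 and 0.00, the last between 2 groups at background. Its treated arrays were within the background range at days 2 and 3 too. For Rec114 (adjusted p = 0.0197) treated minus control averaged 0.99, 0.66 and -0.05. Both of its day 5 means and all its day 3 controls lay in the background range. Of its 3 day 2 controls, 1 exceeded that range. The fit without pairs called none of the 3 (unadjusted p = 0.0623 for Hormad1, 0.114 for Meioc and 0.0364 for Rec114). The part of the background level in these differences was not tested.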

How the results depend on the processing

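Of 676 values of called members under the alternatives, 567 stayed on their side of the threshold, 42 were no longer called and 67 became called. All 67 came from fits with pairs, in ascorbic acid comparisons that the paired fit had called and the main fit had not. Their number follows in part from that choice of comparisons and is not separate support. No direction reversed. Many alternatives could not change a difference, since they left out arrays of other groups or altered only the estimate of the spread. The absence of reversals therefore says little. In the fit with the replicate block of day and number, the count of called members was 3 at day 2, 2 at day 3, 1 at day 5, 2 for the average and 3 for the F test, against 0 in each without the block; all probe sets called numbered 737, 41, 277 and 479 for the first 4, against 2, 1, 31 and 7. With the replicate number as a block over all days, day 3 against day 2 called 1 member, and with 1 probe set a gene it also called 1, against 0. In the fit of the compared groups only, day 2 against day 0 called 0 members (265 probe sets, against 3835 in the fit of all arrays) and day 5 against day 3 called 4, against 2. Leaving out 1 array gave 1 to 5 members for day 2 against day 0, 0 to 1 for day 3 against day 2, 2 to 4 for day 5 against day 3, 7 to 9 for day 5 against day 0 and 0 for each ascorbic acid comparison without pairs; without day 0 replicate 1 the first step called 6710 probe sets. Leaving out 1 pair from the paired fit, chosen after seeing the data, gave 3 at day 2, 1 to 2 at day 3, 0 to 1 at day 5, 2 to 3 for the average and 2 to 4 for the F test. The filter on low values tested 6 of the 10 members, since the others exceeded background on fewer than 3 arrays. The causes were not tested.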
